A study of Homo sapiens with 6 samples.

Results

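Albumin and the plasma carrier proteins were examined in RNA sequencing of HCCLM3, an established human hepatocellular carcinoma cell line with a high capacity to metastasize. The set was named gene by gene, as ALB, TTR, RBP4, AMBP, AHSG, ORM1, ORM2, HP, HPX and GC, and 8 of these 10 genes had a row among the 35856 genes of the deposited table. AHSG and HP were not analysed here. Cells of the LINC00862 group (3 libraries) had been transfected with a vector that overexpresses the long noncoding RNA LINC00862, and cells of the Empty group (3 libraries), called NC in the sample labels, with the vector alone. The comparison asks how expression differs once LINC00862 is overexpressed. Each group had its own cells, so that a response to LINC00862 and a difference in the origin of the libraries cannot be told apart.

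Plasma carrier proteins are made mainly by hepatocytes and bind small molecules that are poorly soluble or harmful when free. Albumin carries fatty acids, bilirubin and many drugs, transthyretin (TTR) and retinol-binding protein (RBP4) travel together with thyroxine and vitamin A, hemopexin (HPX) and haptoglobin (HP) capture heme and hemoglobin, and the vitamin D-binding protein (GC) carries vitamin D. Several belong to the lipocalins, a family of cup-shaped binding proteins, and some rise or fall in the acute phase response of the liver to inflammation.

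The overexpressed gene was read first as a check of the labels. LINC00862 had 11, 21 and 6 counts with the empty vector and 145, 121 and 76 counts with its own vector, so every library stood on the side its label gave. Its log2 fold change was 3.22, and 3.83 without Empty replicate 2. Its level stayed low. FPKM, a level corrected for transcript length and sequencing depth, averaged 0.0507 in Empty and 0.449 in LINC00862, where it ranked 14756 of 35856 genes. The check is also a weak one, since the FPKM of the 2 groups did not overlap for 71.1% of all tested genes. The totals ran from 58241123 to 68229070 counts per library, with a median of 59078385. Small counts came in steps. In Empty replicate 1, 409 protein-coding genes had 4 counts, while 43, 63, 121 and 75 had 1, 2, 3 and 5, and a similar step was present in the other libraries. A count was therefore not read as 1 molecule, and 12 counts in a library, 3 such steps, served as the floor for all fold limits below.

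Markers of the labelled cell type gave a mixed picture. KRT8 and KRT18, keratins of hepatocytes and other simple epithelia, were abundant in both groups, with FPKM of 84.5 ± 12.4 and 153 ± 34.6 in Empty (SD, n = 3). The fibrinogen chain FGB, the urea cycle enzyme CPS1 and transferrin (TF) rose from a mean FPKM of 1.75, 1.3 and 0.0369 in Empty. They reached 550, 305 and 15.5 in LINC00862. SERPINA1 and ASGR1 fell from 1.29 and 0.457 to 0.0950 and 0.0766. Several other listed markers were at or near 0. The apolipoproteins APOA2 and APOH, products of hepatocytes, and GPC3, a marker of hepatoma, had no count in any Empty library and at most 14 in a LINC00862 library. APOA1, the main protein of high-density lipoprotein, reached 14 counts in Empty replicate 3 and 4 in LINC00862 replicate 3 and had none elsewhere. Alpha-fetoprotein (AFP), the classical hepatoma marker, had 14, 24 and 30 counts in Empty and 0 in each LINC00862 library. Of 15 hepatocyte and hepatoma markers, 10 were tested, of which 6 were higher and 3 lower in LINC00862. The higher ones were FGB, CPS1, TF, KRT18, TAT and APOB, and the lower ones AFP, SERPINA1 and ASGR1. Of these, 2 higher and 1 lower (AFP) passed the filter on low counts through 1 group alone, which nearly fixed their calls. Without them, 4 were higher and 2 lower, beside 34.4% and 29.8% of all tested genes. The higher call of KRT18 was lost without Empty replicate 2 or LINC00862 replicate 1 (edgeR quasi-likelihood test, adjusted p = 0.06 and 0.068), and KRT8, not called, turned to lower without Empty replicate 1 (edgeR quasi-likelihood test, adjusted p = 0.0357).

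ALB (ENSG00000163631) encodes serum albumin, the most abundant plasma protein. In hg38 coordinates its row spans chr4:73397114-73421410 on the plus strand. Its counts were 0, 0 and 7 in Empty replicates 1, 2 and 3, and 423, 394 and 282 in LINC00862 replicates 1, 2 and 3. ALB was thus nearly silent in the control, where all 7 counts came from replicate 3, and was present in each LINC00862 library without overlap. Its mean FPKM was 0.0078 ± 0.0135 in Empty and 1.51 ± 0.264 in LINC00862 (SD, n = 3). ALB was at least 32.3-fold higher in LINC00862, with Empty set to its floor. The fitted log2 fold change was 7.29 (standard error 0.82; edgeR quasi-likelihood test, Benjamini-Hochberg adjusted p = 6.01e-05), and it hung on the few Empty counts, moving to 6.69 without Empty replicate 1 and to 11.56 without Empty replicate 3. The exact two-sided permutation test of FPKM gave p = 0.1, the smallest that 3 libraries against 3 allow, for ALB and likewise for TTR, RBP4, AMBP and HPX. These p-values measure only the spread between these libraries, since the labels do not say that they came from separate cultures. In bulk RNA, more cells that express a gene and more RNA per cell cannot be told apart.

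Promoter windows were read for the carrier genes because several of them were higher together. RefSeq (GRCh38.p14) gave windows of 300 bases, from 250 before to 50 after a transcript start, for 5 of the 8 genes (ALB, AMBP, ORM1, RBP4 and HPX). Windows are shown for ALB and AMBP, which reached the highest levels, and for HPX, which did not rise.
ALB, chr4:73404037-73404336, plus strand: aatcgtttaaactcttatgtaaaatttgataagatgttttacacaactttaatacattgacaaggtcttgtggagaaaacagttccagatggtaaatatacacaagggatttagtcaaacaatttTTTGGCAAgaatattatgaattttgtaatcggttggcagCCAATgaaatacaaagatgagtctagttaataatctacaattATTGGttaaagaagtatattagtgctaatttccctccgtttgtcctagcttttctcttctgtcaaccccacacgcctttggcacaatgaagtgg
AMBP, chr9:114078251-114078550, minus strand: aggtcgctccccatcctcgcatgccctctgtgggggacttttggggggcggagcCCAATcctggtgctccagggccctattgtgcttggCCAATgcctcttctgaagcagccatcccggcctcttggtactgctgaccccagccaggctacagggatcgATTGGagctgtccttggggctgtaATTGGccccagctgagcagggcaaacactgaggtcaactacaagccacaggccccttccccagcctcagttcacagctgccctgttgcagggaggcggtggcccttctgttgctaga
HPX, chr11:6440938-6441237, minus strand: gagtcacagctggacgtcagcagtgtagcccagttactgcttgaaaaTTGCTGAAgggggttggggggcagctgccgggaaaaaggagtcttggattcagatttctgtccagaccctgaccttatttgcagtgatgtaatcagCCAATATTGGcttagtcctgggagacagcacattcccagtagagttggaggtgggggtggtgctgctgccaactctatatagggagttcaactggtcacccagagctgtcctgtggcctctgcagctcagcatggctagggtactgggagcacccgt
Capitals mark matches on either strand to 5 motifs. They were CAAAGTCCA for HNF4, TGTTTAC for FOXA, TTGCNNAA for C/EBP, and TATAAA and CCAAT, which are common to many promoters. In the ALB window, which lies inside the row's span, a TTGCNNAA match on the opposite strand began at position -125 from the start, and CCAAT matches at -86 and, on the opposite strand, at -44. The AMBP window held 4 CCAAT matches, at -196, -161, -91 and -67, the last 2 on the opposite strand. The HPX window held TTGCNNAA at -203 and adjoining CCAAT matches at -107 and -102, the latter on the opposite strand. Among all 35116 windows of the same length, CAAAGTCCA occurred in 0.384%, TGTTTAC in 3.42%, TTGCNNAA in 10.5%, TATAAA in 11.5% and CCAAT in 34.6%. A match describes the letters of the window and is not evidence of binding.

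AFP and AFM, 2 relatives of ALB that were also listed, lie next to it on chromosome 4. AFP, the fetal counterpart of albumin, was at least 1.78-fold lower in LINC00862, with LINC00862 set to its floor. It reached the filter's count in Empty only, and 91.4% of the 544 genes that did so in all 3 Empty libraries and in no LINC00862 library were called lower, so its own call adds nothing to its counts. AFM, which encodes the vitamin E-binding afamin, had 3 counts in LINC00862 replicate 2 and none in the other 5 libraries, and was not tested. By their counts, the adjacent genes ALB and AFP were each present in the group where the other was at or near 0, with AFP at low counts throughout.

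TTR (ENSG00000118271; chr18:31557009-31598833, plus strand) encodes transthyretin, the carrier of thyroxine and partner of RBP4. Its counts were 0 in each Empty library and 71, 93 and 50 in LINC00862 replicates 1, 2 and 3. TTR had no count in the control and was present in all 3 LINC00862 libraries. Its mean FPKM in LINC00862 was 0.464 ± 0.158 (SD, n = 3), and it was at least 6.31-fold higher there (edgeR quasi-likelihood test, Benjamini-Hochberg adjusted p = 1.16e-04). RBP4 (ENSG00000138207; chr10:93591687-93601744, minus strand) encodes the retinol carrier of plasma. It had 0, 4 and 5 counts in Empty and 87, 38 and 50 counts in LINC00862, with no overlap. The mean FPKM was 0.0301 ± 0.0263 in Empty and 0.558 ± 0.199 in LINC00862 (SD, n = 3). RBP4 was at least 5.10-fold higher, with a fitted log2 fold change of 4.27 (standard error 0.83; edgeR quasi-likelihood test, Benjamini-Hochberg adjusted p = 0.00159) that was 3.68 without Empty replicate 1. TTR and RBP4 thus rose together, from counts at or near 0, and their FPKM in LINC00862 overlapped.

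**Figure D1:**
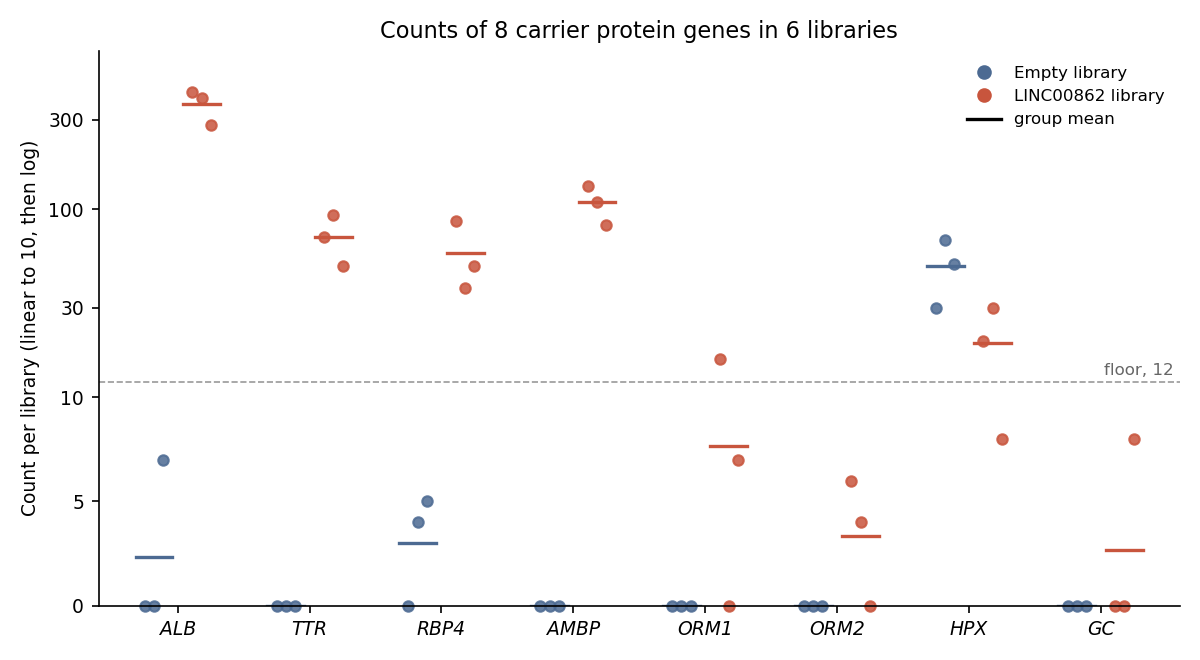
Counts of the 8 carrier protein genes in each library. Points are libraries, horizontal bars are group means, the vertical axis is linear to 10 and logarithmic above, and the dashed line marks the floor of 12 counts. ALB, TTR, RBP4 and AMBP lie above the floor in the 3 LINC00862 libraries and below it in the 3 Empty libraries, while HPX has its highest counts in Empty.

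AMBP (ENSG00000106927; chr9:114060127-114078328, minus strand) encodes a precursor that is cleaved into the lipocalin alpha-1-microglobulin, which binds heme, and bikunin, a protease inhibitor. Its counts were 0 in each Empty library and 134, 110 and 83 in LINC00862 replicates 1, 2 and 3. AMBP had the second highest mean among the carrier genes in LINC00862, with an FPKM of 0.809 ± 0.144 (SD, n = 3). It was at least 9.58-fold higher than in Empty (edgeR quasi-likelihood test, Benjamini-Hochberg adjusted p = 3.94e-05). ORM1 (ENSG00000229314; chr9:114323056-114326475, plus strand) and ORM2 (ENSG00000228278; chr9:114329869-114333251, plus strand) encode orosomucoids, acute phase lipocalins that carry basic drugs. These neighbouring genes are nearly identical copies, so that the share of reads assigned to each is uncertain. ORM1 had 0 counts in each Empty library and 16, 0 and 7 in LINC00862, and ORM2 had 0 in each Empty library and 6, 4 and 0 in LINC00862. Neither passed the filter on low counts, and for both the groups overlapped.

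HPX (ENSG00000110169; chr11:6431049-6442617, minus strand) encodes hemopexin, the plasma protein with the tightest hold on heme. It had 30, 69 and 51 counts in Empty and 20, 30 and 8 in LINC00862, and was the one carrier gene above the floor in every Empty library. The counts of the groups touched at 30. Its FPKM was 0.113, 0.278 and 0.198 in Empty and 0.0646, 0.111 and 0.0297 in LINC00862, which left the groups apart by a narrow margin. The log2 fold change was -1.31 (standard error 0.59; edgeR quasi-likelihood test, Benjamini-Hochberg adjusted p = 0.0784), so HPX did not pass the threshold. Without Empty replicate 1, its log2 fold change was -1.60 and it passed (edgeR quasi-likelihood test, adjusted p = 0.0398), within a range of adjusted p from 0.0289 to 0.237 over all 13 alternative fits. GC (ENSG00000145321; chr4:71741696-71804041, minus strand), the vitamin D-binding protein gene, had 8 counts in LINC00862 replicate 3 and 0 in the other 5 libraries, and was not tested.

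Of the 8 genes with a row, 5 passed the filter on low counts. ALB, TTR, RBP4 and AMBP were higher in LINC00862, HPX was not called, and no carrier gene was called lower at a false discovery rate of 0.05. Across the table, 13321 of 20741 tested genes (64.2%) were called, 7145 (34.4%) as higher and 6176 (29.8%) as lower in LINC00862. Which direction held more genes depended on the scaling, with 6437 higher and 6826 lower by library size only and 8060 and 5291 with upper quartile scaling. The 4 called carrier genes reached the filter's count in the 3 LINC00862 libraries and in 0 Empty libraries. Genes that passed the filter in this way could hardly avoid a call, since 97.4% of the 2136 such genes were called higher, so the number of carrier genes called says nothing beyond their counts. The FPKM ranges of Empty and LINC00862 were separate for each of the 5 tested carrier genes, and for 71.1% of all genes tested.

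FPKM is scaled by transcript length and allows the levels of different genes to be ordered. In LINC00862, ALB lay highest (1.21 to 1.71), above AMBP (0.645 to 0.911) without overlap. AMBP overlapped RBP4 (0.390 to 0.778), and RBP4 overlapped TTR (0.334 to 0.640). ORM1 (0 to 0.219) lay below TTR and overlapped HPX (0.0297 to 0.111), ORM2 (0 to 0.0880) and GC (0 to 0.0564). Neighbours within AMBP, RBP4 and TTR and within the 4 lowest genes are therefore not ordered beyond their spread, except that AMBP stayed just above TTR. In Empty the order was different, with HPX (0.113 to 0.278) above RBP4 (0 to 0.0488) and ALB (0 to 0.0234), and the other 5 listed at 0. The mean level of ALB ranked 26753 of 35856 genes in Empty and 10458 in LINC00862, so it remained far from the most abundant genes after its rise.

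The level of ALB was small beside several liver products of the same libraries and above that of others. The fibrinogen chain FGA had an FPKM of 796 ± 85.1 in LINC00862 (SD, n = 3), which was 534 ± 71.7 times that of ALB taken library by library. FGG and FGB exceeded ALB by 419 ± 41.1 and 372 ± 62.3 times. The iron carrier transferrin (TF) and the copper carrier ceruloplasmin (CP), which are also plasma carriers but were not among the 10 genes, were 10.3 ± 0.544 and 22.6 ± 1.28 times the ALB level. CPS1, the mitochondrial entry enzyme of the urea cycle, was at 204 ± 17.3 times ALB. In hepatocytes of the adult liver, albumin is among the most abundant messengers. Here it ranked below each of these genes in each of the 3 LINC00862 libraries. Other secreted liver products had a mean FPKM in LINC00862 below the 1.51 of ALB, among them SERPINA3 (0.450), CRP (0.192), APOB (0.144) and SERPINA1 (0.0950).

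**Figure D2:**
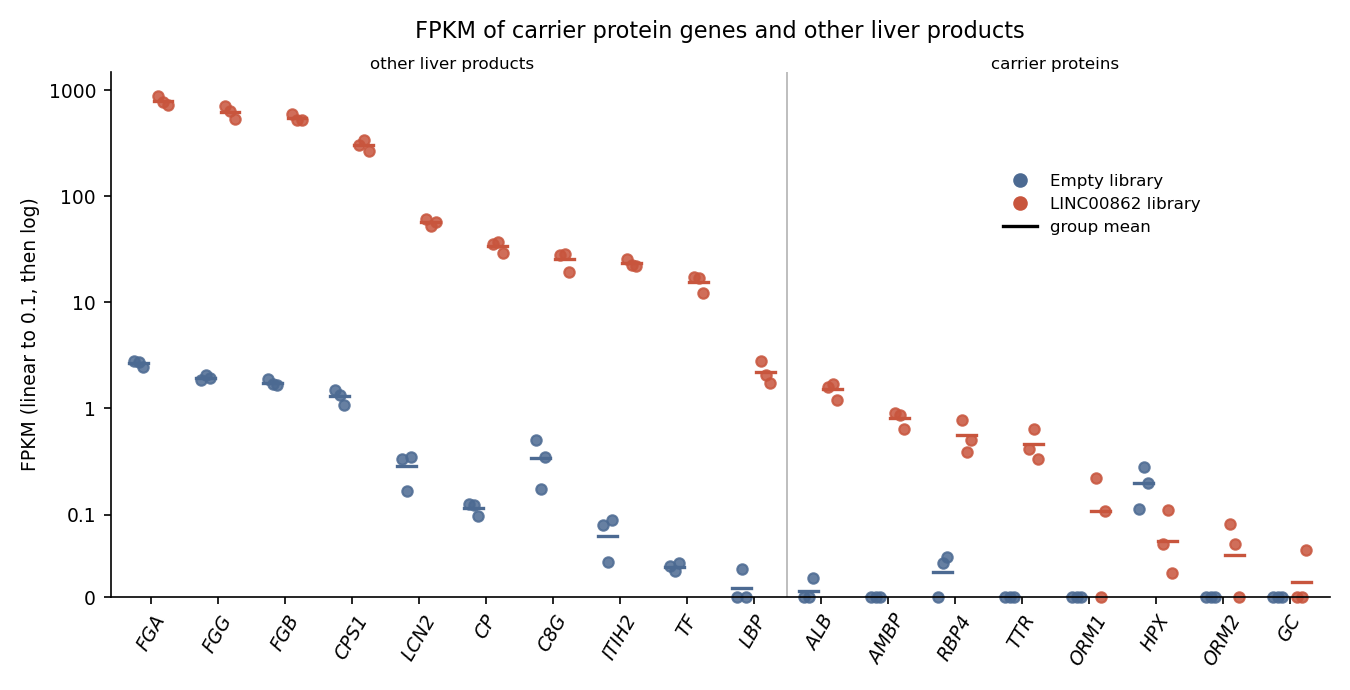
FPKM of 10 other liver products (left) and of the 8 carrier protein genes (right) in each library, each side ordered by its mean in LINC00862. Points are libraries, bars are group means, and the vertical axis is linear to 0.1 and logarithmic above. ALB reaches a mean of 1.51 in LINC00862, against 796 for FGA.

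Relatives of the carrier genes were followed through lists of their families and pathways, beside a median log2 fold change of 0.11 over all 20741 tested genes. Part of the higher calls in these lists fell to genes that reached the filter's count in LINC00862 alone, for which such a call was nearly fixed. They were 9 of the 14 liver transcription factors called higher, 3 of the 9 acute phase genes and 4 of the 9 retinoid genes. They were also 1 of the 4 other lipocalins, 1 of the 2 thyroid hormone genes and 1 of the 4 receptors and partners. Among markers, these were 2 of 6 for hepatocytes and hepatoma, 2 of 3 for bile duct and 2 of 2 for mesothelium. Of the lower calls, 1 of 2 thyroid hormone genes and 1 of 3 hepatocyte and hepatoma markers (AFP) reached the count in Empty alone. Over all tested genes, 34.4% were called higher and 29.8% lower. Of 15 other lipocalins, 9 had a row and 5 were tested. LCN2, C8G, PAEP and LCN12 were higher and APOM was not called, with a median log2 fold change of 6.27, or 4.05 with genes at the floor set to their limit. LCN2, a siderophore-binding lipocalin of the acute phase, had 36, 18 and 39 counts in Empty and 7495, 5551 and 6119 in LINC00862. Its FPKM of 57.1 ± 4.38 (SD, n = 3) in LINC00862 was 38.7 ± 8.24 times that of ALB, with a log2 fold change of 7.78 (standard error 0.28; edgeR quasi-likelihood test, Benjamini-Hochberg adjusted p = 9.05e-08). C8G, the lipocalin subunit of the complement component C8, rose by a log2 fold change of 6.27 (standard error 0.34).

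Bikunin, released from AMBP, is linked in the liver to the heavy chains of inter-alpha-trypsin inhibitor. Calls of these genes stand beside 34.4% higher and 29.8% lower over all tested genes. Of 6 genes for heavy chains and their partner, 4 were tested, and ITIH2 and ITIH5 were higher while ITIH4 and TNFAIP6 were not called, with a median log2 fold change of 1.71. The calls of ITIH4 and TNFAIP6 turned to higher without Empty replicate 1 and without Empty replicate 3 (edgeR quasi-likelihood test, adjusted p = 0.0213 and 0.0217). ITIH2 had 20, 10 and 21 counts in Empty and 6528, 4957 and 4889 in LINC00862, and its FPKM was 15.7 ± 2.48 times that of ALB in LINC00862. ITIH3 reached at most 18 counts in any library and ITIH1 was not analysed here. Among 4 relatives of fetuin (AHSG), FETUB, HRG and KNG1 were below the filter. The cystatin CST3 was called higher by a log2 fold change of 0.74 (edgeR quasi-likelihood test, adjusted p = 0.0257), a call that was lost without Empty replicate 2, LINC00862 replicate 1 or LINC00862 replicate 3 (edgeR quasi-likelihood test, adjusted p = 0.061, 0.0831 and 0.0826).

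The ligands of the carriers are handled by enzymes and receptors with calls in both directions. Over all tested genes, 34.4% were called higher and 29.8% lower. In retinoid handling, the pathway of the RBP4 ligand, 9 of 17 tested genes were higher, 4 lower and 4 not called, with a median log2 fold change of 1.48. RDH10 and DHRS3, which interconvert retinol and retinal, rose by 3.95 and 4.93 on the log2 scale. BCO1, which cleaves beta-carotene, and CYP26A1, which degrades retinoic acid, had 0 counts in each Empty library and were at least 14.4-fold and 4.17-fold higher. Of 3 enzymes that make retinoic acid, ALDH1A1 rose by 5.57 on the log2 scale (6.18 without Empty replicate 3), to a mean FPKM of 6.85, and ALDH1A3 fell by 5.65, from 4.45, while ALDH1A2 was not called. Of the receptors, RARG and RARA fell by 1.97 and 1.07 and RARB rose by 1.48 on the log2 scale, the last with a call that was lost without LINC00862 replicate 1 or 2 (edgeR quasi-likelihood test, adjusted p = 0.0543 and 0.0535). STRA6, the receptor for RBP4, was not called, with 16, 29 and 14 counts in Empty and 40, 34 and 32 in LINC00862. In thyroid hormone handling, which concerns the TTR ligand, 2 of 6 tested genes were higher, 2 lower and 2 not called. Their median log2 fold change was 0.32. These counts lie near the shares over all tested genes. Without the genes that reached the filter's count in a single group, 1 was higher, 1 lower and 2 not called. DIO2, which activates thyroxine, rose by 5.46 on the log2 scale, and the receptor THRB fell by 1.57 on the log2 scale.

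In vitamin D handling, which concerns the GC ligand, 4 of 6 genes were higher and 2 lower, with a median log2 fold change of 2.06, or 1.71 with genes at the floor set to their limit. The hydroxylases CYP2R1 and CYP27B1, which activate vitamin D in sequence, rose by 3.52 and 4.50 on the log2 scale. CYP27A1, another 25-hydroxylase, was at least 13.9-fold lower, from 184, 183 and 170 counts to 11, 9 and 12, and CYP24A1, which degrades vitamin D, was at least 3.96-fold higher, with a call that was lost without LINC00862 replicate 1 or 3 (edgeR quasi-likelihood test, adjusted p = 0.0741 and 0.0805). GC itself stayed at or under 8 counts in every library. The calls in this list and the next stand beside 34.4% higher and 29.8% lower over all tested genes. In heme and hemoglobin clearance, the pathway of HPX and HP, 6 of 10 genes were higher, 1 lower and 3 not called, with a median log2 fold change of 1.40. This list also held the metal carriers TF and CP, which rose by 8.82 and 8.29, and without them, a choice made after seeing the data, 4 of 8 genes were higher, 1 lower and 3 not called, with a median of 0.62. HMOX1, the inducible heme oxygenase, rose by 1.07 and the biliverdin reductase BLVRB by 1.72. LRP1, the receptor that takes up the hemopexin-heme complex, fell by 3.68, from 21832, 12737 and 13671 counts in Empty to 1325, 1397 and 799 in LINC00862. CD163, the haptoglobin-hemoglobin receptor, was not called, with 28 to 39 counts in Empty and 29 to 42 in LINC00862. HPX and its receptor thus both had their higher FPKM in Empty, although HPX did not pass the test.

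Of 9 receptors and partners that bind or clear carrier proteins, 7 were tested, with 4 higher, 2 lower and 1 not called. Their median log2 fold change was 0.87. Without LRP2, which reached the filter's count in LINC00862 alone, 3 were higher and 2 lower. Among all tested genes, 34.4% were higher and 29.8% lower. FCGRT, which recycles albumin, had an FPKM of 1.32 ± 0.0875 in Empty and 1.73 ± 0.254 in LINC00862 (SD, n = 3), a log2 fold change of 0.55 (edgeR quasi-likelihood test, adjusted p = 0.0406). Its call was lost in 5 of the 6 fits that left out a library, all but that without Empty replicate 3, with edgeR adjusted p between 0.0516 and 0.136. The call held in 2 of the 3 scalings. LRP2, the kidney receptor for albumin, RBP4 and the vitamin D carrier, was at least 10.6-fold higher, from 4, 0 and 0 counts to 75, 148 and 127. ASGR1, which clears desialylated plasma proteins such as orosomucoid, fell by 2.37 on the log2 scale.

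**Figure D3:**
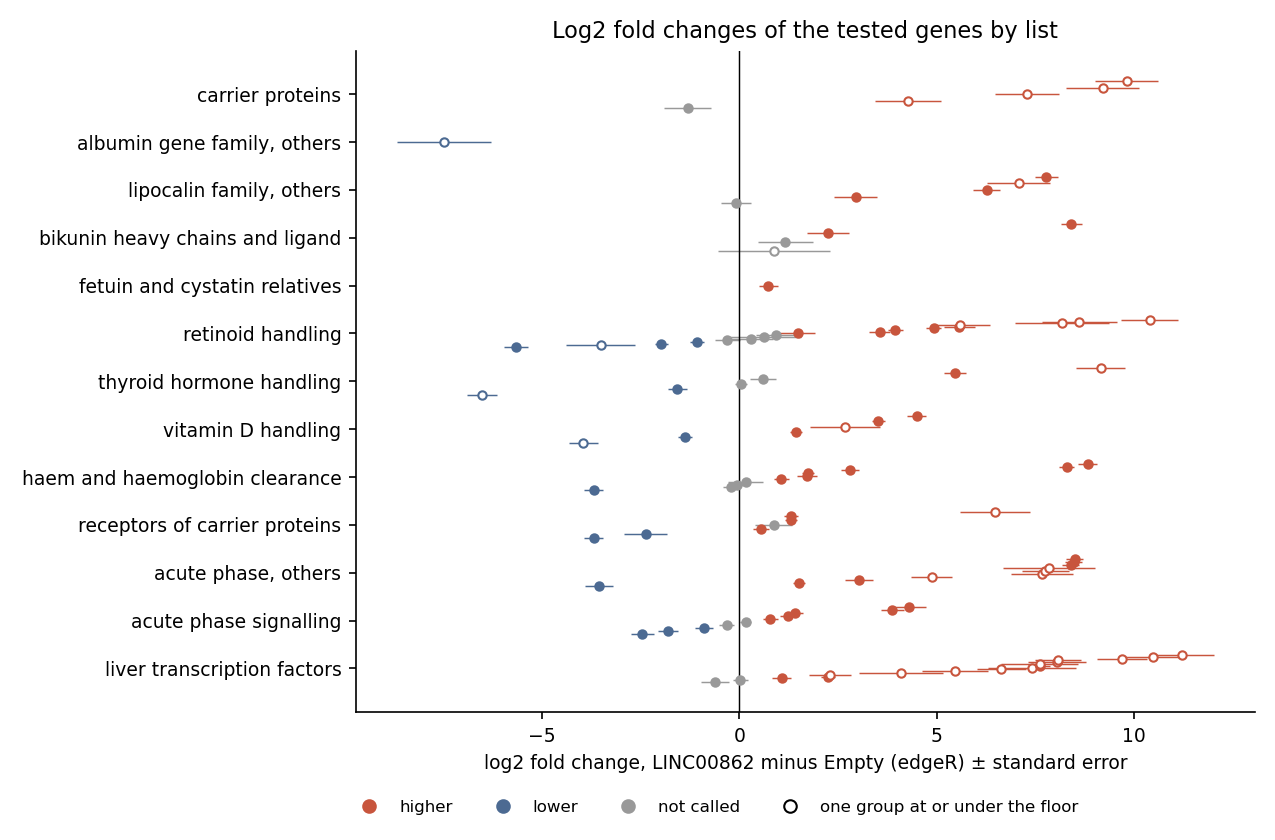
Log2 fold changes (LINC00862 minus Empty, edgeR) of the tested genes in the carrier set and in 12 lists of relatives and pathways. Points are genes with their standard error as horizontal bars, coloured by the call at a false discovery rate of 0.05, and open points are genes with a group mean at or under the floor, whose fitted value depends on the prior count. The lists were not compared with each other by a test.

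The orosomucoids, haptoglobin and hemopexin are positive acute phase proteins, whereas albumin, transthyretin and RBP4 are negative ones. For the counts of calls that follow, the shares over all tested genes were 34.4% higher and 29.8% lower. Of 12 other acute phase genes, 10 were tested, of which 9 were higher and 1 lower, with a median log2 fold change of 7.70, or 4.19 with genes at the floor set to their limit. The 3 fibrinogen chains rose by 8.39, 8.47 and 8.49 on the log2 scale, SAA1 rose by 3.03, and CRP, with 0 counts in each Empty library, was at least 2.46-fold higher. SERPINA1, the protease inhibitor alpha-1-antitrypsin, fell by 3.55. Both negative members (ALB, TTR, RBP4) and positive genes were therefore among those that rose. In the signalling that drives the acute phase, 5 of 10 genes were higher, 3 lower and 2 not called, with a median log2 fold change of 0.48. IL6R rose by 3.88 and CEBPB by 1.24 on the log2 scale, and IL6ST, the shared signalling chain, fell by 1.81.

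Liver transcription factors bind the promoters of ALB and other carrier genes in hepatocytes. Their calls stand beside 34.4% higher and 29.8% lower over all tested genes. Of 18 listed, 16 were tested, of which 14 were higher (5 without those that reached the filter's count in LINC00862 alone) and 2 (HLF and TEF) not called, with a median log2 fold change of 7.03, or 4.14 with genes at the floor set to their limit. HNF4A remained low, with 0, 0 and 4 counts in Empty and 34, 24 and 14 in LINC00862, at least 2.08-fold higher. FOXA1, already present in Empty with an FPKM of 3.75 ± 0.891, rose by 2.25 on the log2 scale, and ONECUT2 rose by 7.61. Whether these factors act on the carrier genes was not tested.

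Markers of other cell types were read beside the carrier genes. The counts of calls below stand beside 34.4% higher and 29.8% lower over all tested genes. Of 5 bile duct markers, 3 were higher, 1 lower and 1 not called, and their summed FPKM was 70.1, 81.0 and 96.2 in Empty and 266, 238 and 235 in LINC00862, with KRT7 the most abundant in Empty and EPCAM in LINC00862. Of 8 fibroblast markers, 2 were higher, 2 lower and 4 not called, and their sum was 48.5, 45.6 and 56.6 in Empty and 11.9, 12.2 and 15.8 in LINC00862, led by THY1 in Empty and by COL1A1, which rose by 2.32 on the log2 scale, in LINC00862. Of the 4 tested mesothelial markers, 2 were higher and 2 lower, and the list summed to between 26.8 and 39.4 in Empty and between 0.727 and 0.954 in LINC00862, led by MSLN in Empty and by CALB2 in LINC00862. The higher call of CALB2 was lost without Empty replicate 2 or LINC00862 replicate 1 (edgeR quasi-likelihood test, adjusted p = 0.0548 and 0.0888). Of 5 endothelial markers 1 (CDH5) was higher and 4 were not called, with sums of 1.3 to 1.9 in Empty and 4.53 to 5.94 in LINC00862, where CDH5 was the most abundant, as VWF was in Empty. Of 6 leukocyte markers, 2 (CD14 and CD68) were higher and 4 not called, with sums of 3.71 to 4.25 and 9.70 to 15.5, led by CD14 in Empty and by CD68 in LINC00862. Of 6 intestinal markers in the table, only LGALS4, the most abundant, was tested and it was not called, with sums of 0.0566 to 0.234 in Empty and 0.202 to 0.384 in LINC00862. Of these markers, 4 intestinal and 1 mesothelial stayed at or under the floor in all 6 libraries, and none was at 0 throughout. Of the 6 reference genes, 5 were lower under each scaling tried and RPLP0 was not called, and ACTB fell by 2.27 on the log2 scale. The part of any of these in the rise of the carrier genes was not tested.

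The position of the carrier genes was examined through the 2 nearest rows on each side. None of the 8 rows overlapped another row of the table. Of 26 distinct neighbours, 17 were tested, with 4 higher, 5 lower and 8 not called, against 34.4% higher and 29.8% lower over all tested genes. Beside AMBP, the kinesin gene KIF12 had 0 counts in each Empty library and 61, 63 and 65 in LINC00862, at least 5.65-fold higher, and COL27A1, between AMBP and ORM1, rose by 2.49 on the log2 scale. ZNF618 on the other side of AMBP and AKNA beside ORM2 were not called. Next to TTR, the desmosomal cadherin DSG2 rose by 2.53 on the log2 scale, while DSG2-AS1 and B4GALT6, the genes nearest on each side, were not called. DSG2-AS1 is antisense to DSG2 and overlaps it, and as strand use in counting is not stated, their reads cannot be told apart. The direct neighbours of HPX, APBB1 and TRIM3, fell by 3.74 and 1.00 on the log2 scale, and SMPD1 and ARFIP2 beyond them were not called.

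All 8 genes carried the annotation extracellular exosome and extracellular region in the table, and 6 of 8 the annotation blood microparticle. Of 80 tested genes with the last term, 35 were higher, 20 lower and 25 not called, and without the carrier genes these were 33, 20 and 24 of 77. Their median log2 fold change without the carrier genes was 0.23, against 0.11 over all tested genes. Of all tested genes, 34.4% were called higher and 29.8% lower. By the Euclidean distance of centred log2(CPM + 0.5) over the 6 libraries (CPM are counts scaled to the effective library size), the genes nearest to ALB were ZBTB7B (distance 0.159), KCNK5 (0.203) and RTKN (0.204). The added 0.5 shrinks the change of ALB on this scale, and ZBTB7B and RTKN rose by only 3.71 and 3.61 on the log2 scale in the main fit, below the limit of 32.3-fold given for ALB. KCNK5, a potassium channel gene, had 7, 4 and 10 counts in Empty and 440, 478 and 303 in LINC00862.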

How the data were processed

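Polyadenylated RNA of HCCLM3 cells was sequenced as paired reads from strand-marked libraries whose adapters carried molecular identifiers. Per the labels, each of the 6 libraries belonged to 1 of 2 groups, Empty (NC) or LINC00862. A raw read count was deposited for every gene and library. A FPKM value, computed by the authors from fragments, transcript length and library size, was deposited beside it. The submitters' processing notes name cutadapt 1.9, HISAT2 2.0.4, UMI-tools, StringTie 1.3.4d, DESeq2, edgeR and the build hg38. Whether identifiers were collapsed and whether strand was used in counting is not given in the sources used here. All fold limits allow only for counting error in the lower group. They rest on the mean of the higher group and do not allow for its spread between libraries.

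Members and lists were chosen with earlier results of these data known. Counts were compared with edgeR 4.0.16 in R 4.3.3 (TMM, filterByExpr with a count of 10 at the median library, quasi-likelihood test, Benjamini-Hochberg over 20741 genes, false discovery rate 0.05). The CPM used for fold limits were scaled by TMM, and a limit divides the mean CPM of the higher group by the mean CPM that 12 counts would have in the lower group. Standard errors were derived as the size of the log2 fold change divided by the square root of the test's F statistic. They are rough for genes at or near 0 counts in a group. FPKM of single genes was compared with an exact permutation test. Genes named are the carrier genes, LINC00862, the lists, the 2 nearest rows on each side and the 3 genes nearest to ALB by Euclidean distance of centred log2(CPM + 0.5). Values of some listed genes are not reported here. No pair of libraries was as close as sampling noise. Alternatives were DESeq2 1.42.0, library size only, upper quartile scaling, every gene with at least 1 count, a replicate block, limma-trend 3.58.1 on log2(FPKM + 1) and log2(FPKM + 0.1), and leaving out each library. The fits were tested on simulated counts. Changes were set there in few genes, none of low mean count. Genes near 0 counts in a group, and a change as wide as the one here, were therefore not covered. Further steps used Python 3.11.15, pandas 2.3.3, scipy 1.17.1 and matplotlib 3.10.9.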

Additional observations from a re-analysis of the deposited data

How the results depend on the processing

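ALB, TTR, RBP4 and AMBP reached the filter's count in LINC00862 alone, and 97.4% of such genes were called higher in the main fit. Under the 13 alternative fits, these carrier genes remained higher and called in 13 of 13, which their counts had nearly fixed. Their log2 fold changes ranged from 1.31 to 11.56 for ALB, 0.54 to 9.39 for TTR, 0.59 to 4.86 for RBP4 and 0.85 to 9.94 for AMBP, each lowest under limma-trend on log2(FPKM + 1), since this pseudocount shrinks genes of low level. HPX ranged from -1.80 to -0.16. The number of carrier genes called lower, 0 in the report, was 1 (HPX) under limma-trend on log2(FPKM + 1), 1 under limma-trend on log2(FPKM + 0.1) and between 0 and 1 when libraries were left out, with 1 without Empty replicate 1; the cause was not tested. With every gene kept, ORM1, ORM2 and GC had edgeR adjusted p of 0.0741, 0.141 and 0.204. The replicate block gave 12098 called genes against 13321 and changed no call of a carrier gene; deviations of libraries with the same number correlated at -0.09, -0.08 and -0.06, so the numbers do not pair them. Leaving out a library gave 12063 to 14285 called genes. Besides the genes whose calls are given in the report, KRT7 turned to higher without Empty replicate 3, AMN to higher without Empty replicate 1 and TIE1 to lower without LINC00862 replicate 3 (edgeR adjusted p = 0.0202, 0.0436 and 0.0453), and ADAMTS3, a neighbour of GC, lost its lower call without LINC00862 replicate 2 (edgeR adjusted p = 0.0575). Over the whole table, the median log2 fold change came to 0.11 with TMM, -0.05 by library size only, 0.32 with upper quartile scaling and 0.16 with DESeq2. The called genes split into 7145 higher and 6176 lower with TMM, 6437 and 6826 by library size only, 8060 and 5291 with upper quartile scaling, 7556 and 6166 with DESeq2, and 6670 and 6918 under limma-trend on log2(FPKM + 1). The counts of called genes in single lists moved by over 1.5 times in 5 cases, in the small lists of bikunin chains and fetuin relatives. Depth limits what can be said of ORM1, ORM2 and GC, and of every fold against a group at or under the floor.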
